A study of Mus musculus with 2 samples.

Results

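The genes described here are 31 genes of the ciliary transition zone and the basal body, out of 32285 genes in the deposited tables. They were chosen by symbol, and each of the 31 symbols had a row. Of them, 21 were listed under the transition zone, among them genes that link it to the basal body and Invs of the neighbouring segment. The other 10 were listed under the basal body and its satellites. They were read in single cells of mouse gastruloids, small balls of cultured stem cells that break symmetry and set up a head-to-tail axis. Each ball was started from about 300 R1 cells (a mouse embryonic stem line), either wild type or Sp5/8 double knockout by label, and was grown in N2B27 medium without serum. Both groups received 3 µM CHIR, which blocks GSK3 and thereby turns on Wnt signalling. It was added on day 2, and 12 hours later, at day 2.5, the samples were collected. Aggregates were pooled, and each group has 1 library, so differences carry no replicate check and no test was made. The number of clones behind the knockout line is not given in the sources used here.

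The primary cilium is a sensory projection that grows from a centriole, which is then called the basal body. Distal appendages dock the centriole to the membrane, subdistal appendages anchor microtubules, and centriolar satellites carry proteins to and from it. The transition zone lies just above the basal body and works as a gate that decides which proteins enter the cilium, and Hedgehog signalling in vertebrate embryos depends on it. Cilia are taken apart before mitosis and form again after it, and mutations in many of these genes cause ciliopathies such as Meckel, Joubert and nephronophthisis syndromes. Epiblast cells of the mouse embryo and their derivatives carry primary cilia, whereas multiciliated cells appear much later.

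UMIs (molecular tags that let copies of a molecule be counted once) over all barcodes totalled 104083993 (library labelled wild type) and 103187025 (library labelled double knockout). Throughout, values are given in that order. Barcodes with at least 2500 UMIs, at least 1000 genes and at most 10% mitochondrial UMIs were taken as cells, which gave 8707 and 10587 cells with medians of 10571 and 8637 UMIs. The labels state 9238 and 11190 cells. The targeted genes had more UMIs in the library labelled double knockout. Sp5 was at 109.1 and 478.7 UMIs per 1000000 UMIs of the library's cells (CPM), and Sp8 at 20.8 and 40.1 CPM. The reason for this was not tested. The text therefore speaks of the library labelled double knockout, and no direction is drawn to loss of Sp5 and Sp8. The libraries shared 27 cell barcodes, where unrelated lists of these sizes would share 13.6. Markers of some early cell types differed between the libraries. Those of the primitive streak summed to 304 and 498 CPM over 9 genes (log2 ratio 0.71). Of the 8 streak markers with a mean of at least 1 CPM, 6 were higher and 2 lower under the double knockout label. Neural ones summed to 79.3 and 54.7 CPM over 9 genes (-0.54), of which 3 were under 1 CPM in each library. Those of definitive endoderm summed to 524 and 851 CPM over 5 genes (0.70). Of these 5, 2 were under 1 CPM in each library, with 1 and 0 at 0 UMIs, so that sum rests on few genes. The part of cell composition in the member ratios was not tested beyond the ratios within clusters and with equal cluster shares. Markers of multiciliated cells were low. The 9 of 10 markers with a row summed to 19.9 and 20.8 CPM, none was at 0 UMIs, and Foxj1, the main regulator of multiciliated cells, was at 1.02 and 0.83 CPM. Markers of fibroblast feeders summed to 6.72 and 6.36 CPM over 7 genes, of which 3 and 2 were at 0.

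The members were expressed at low to moderate levels that were close in the libraries. Summed over the 31 genes, they made up 861 and 839.7 CPM, a log2 ratio (double knockout label over wild type label) of -0.04 with a 95% interval of -0.05 to -0.02. All intervals cover counting error only. The median cell held 9 and 7 UMIs of members, from 7 and 5 different members. With each cell thinned to 2500 UMIs, the median was 2 member UMIs in both libraries, and 12.0% (11.4 to 12.7) and 13.4% (12.7 to 14.0) of cells held none. Without thinning, 0.609% and 0.671% of cells held none. Barcodes of 10 to 100 UMIs, which hold free RNA rather than cells, carried members at 721 and 720 CPM. A member UMI in a single cell is therefore not read here as expression in that cell. A 3′ tag is counted once per transcript, so CPM values were not divided by gene length, and they rank genes by UMIs only.

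Of the 31 members, 26 had a mean of at least 5 CPM and were compared. Their median log2 ratio was -0.04, beside -0.02 for the 9386 genes of all kinds at that level. Above 0 lay 10 members and below 0 lay 16, beside 4037 and 5349 of all genes. Past a fold of 0.25 on the log2 scale (1.19-fold), 0 members were higher, beside 3.67% of all genes, and 3 were lower, beside 5.87% of all genes. The 3 were Tmem107, Cep83 and Dzip1. The counting interval lay above 0 for 3 members, beside 23.7% of all genes, and below 0 for 12, beside 35.1%. The 16 transition zone genes compared had a median of -0.03 and the 10 basal body genes a median of -0.06.

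**Figure D1:**
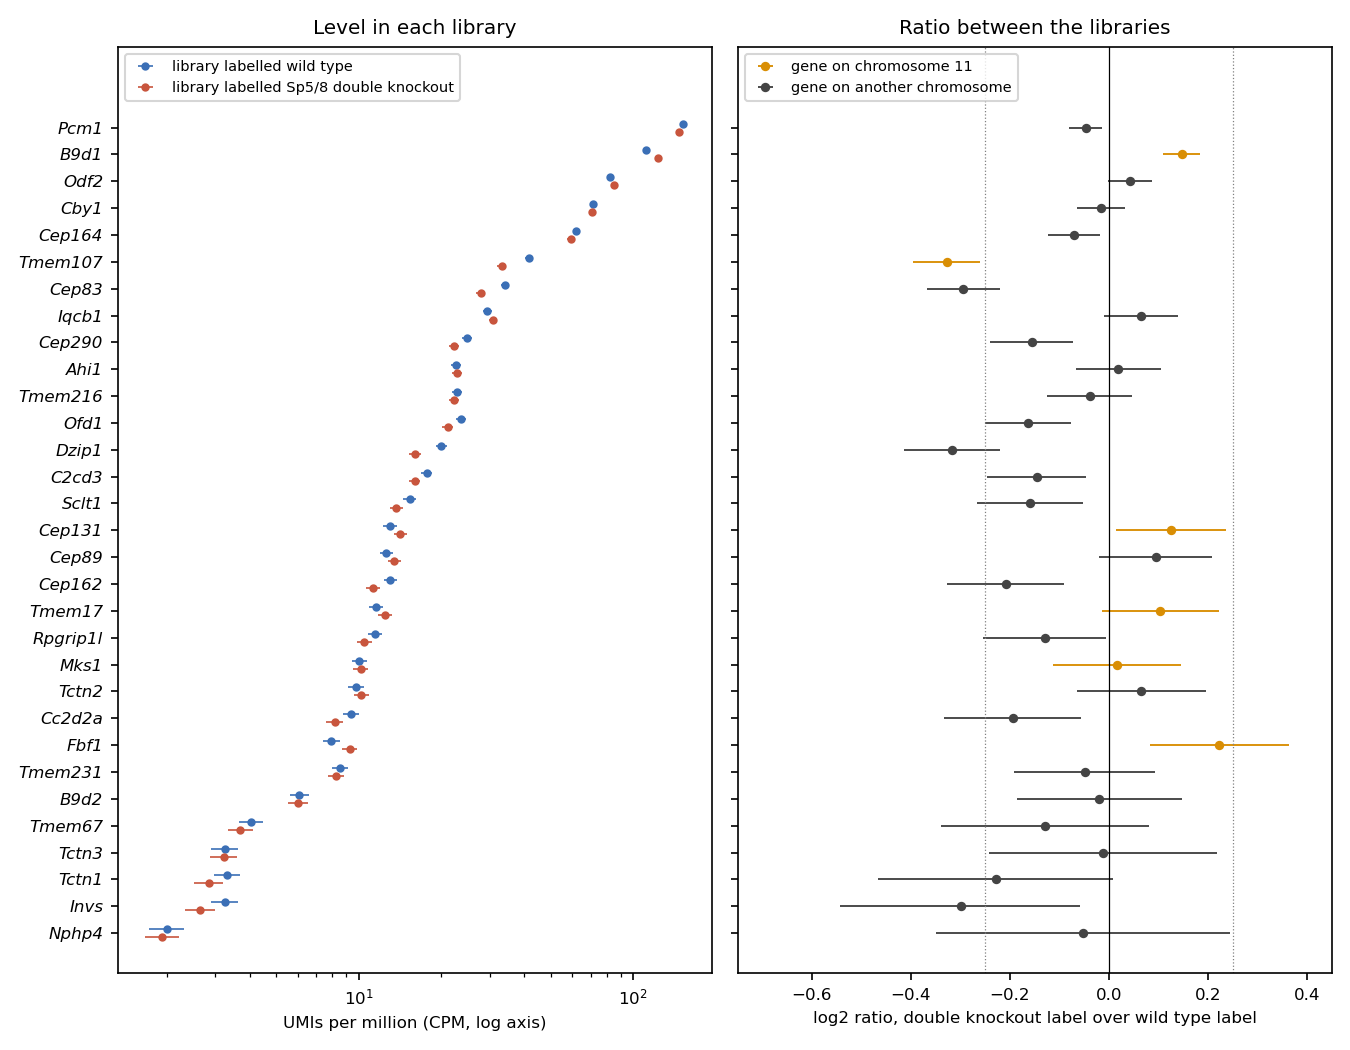
Left, level of each of the 31 members in CPM on a log axis, for the libraries labelled wild type (blue) and Sp5/8 double knockout (red), with exact Poisson 95% intervals. Right, log2 ratio of the libraries with exact 95% counting intervals, for genes on chromosome 11 (orange) and on other chromosomes (dark), with dotted lines at -0.25 and 0.25. Tmem107, Cep83 and Dzip1 lie left of the lower line at 5 CPM or more, and Invs does so below that level.

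Among transition zone genes of the MKS complex, the membrane and soluble proteins that form the diffusion barrier, Tmem107 had the most negative ratio. Tmem107 (ENSMUSG00000020895) encodes a small membrane protein that recruits other members to the transition zone and lies on the plus strand of chromosome 11, 69070806 to 69073293 in GRCm38. It was at 41.6 CPM (40.3 to 42.9; 4041 UMIs) and 33.1 CPM (32.0 to 34.3; 3236 UMIs). The log2 ratio was -0.33 (-0.39 to -0.26), and the intervals of the levels did not overlap. B9d1 (ENSMUSG00000001039), a B9 domain protein of the same complex on chromosome 11 from 61505144 to 61512931, had the most UMIs of the transition zone genes and went the other way. It was at 111 CPM (109.3 to 113.5) and 123 CPM (121.2 to 125.6), a log2 ratio of 0.15 (0.11 to 0.18). Its partners B9d2 (6.08 and 6.001 CPM) and Mks1 (10.1 and 10.2 CPM) had log2 ratios of -0.02 and 0.02, and both intervals held 0. Cc2d2a, which is mutated in Joubert and Meckel syndromes, was at 9.37 and 8.18 CPM, with a log2 ratio of -0.19 (-0.33 to -0.06). The membrane proteins Tmem216 (22.8 and 22.2 CPM), Tmem231 (8.54 and 8.25 CPM) and Tmem17 (11.6 and 12.5 CPM) had intervals that held 0. So did Ahi1, the jouberin gene, at 22.5 and 22.8 CPM, and the tectonic gene Tctn2 at 9.78 and 10.2 CPM. Tctn1, Tctn3 and Tmem67 stayed under 5 CPM, at 3.32 and 2.84, 3.25 and 3.23, and 4.06 and 3.71 CPM, and their intervals held 0.

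Genes of the NPHP complex, which lies nearer the microtubules, were at similar or slightly lower levels in the library labelled double knockout. Cep290, a large protein that links the microtubules to the membrane, was at 24.9 and 22.3 CPM, a log2 ratio of -0.16 (-0.24 to -0.07). Rpgrip1l, a scaffold for other transition zone proteins, was at 11.5 and 10.5 CPM, a log2 ratio of -0.13 (-0.25 to -0.01). For Iqcb1, a partner of Cep290, the values were 29.4 and 30.8 CPM and the interval held 0. Invs, which marks the ciliary segment next to the transition zone, was at 3.25 and 2.64 CPM. Its log2 ratio of -0.30 (-0.54 to -0.06) rests on 316 and 258 UMIs and lies under the level used for counting. Nphp4 was the lowest member at 2.00 and 1.93 CPM.

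Of the 3 genes that link the transition zone to the basal body, Dzip1 differed most. Dzip1 (ENSMUSG00000042156), a zinc finger protein needed for Hedgehog signalling and for building the transition zone, lies on the minus strand of chromosome 14 from 118875520 to 118925460. It was at 19.98 CPM (19.1 to 20.9; 1941 UMIs) and 16.03 CPM (15.2 to 16.8; 1565 UMIs), a log2 ratio of -0.32 (-0.41 to -0.22). Cep162, which brings Cep290 to the tips of centriolar microtubules, was at 13.0 and 11.3 CPM, a log2 ratio of -0.21 (-0.33 to -0.09). Cby1, a basal body protein that acts with Dzip1 and also binds beta-catenin, was at 71.4 and 70.6 CPM, and its interval held 0.

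Among the distal appendage genes, Cep83 and Fbf1 lay at opposite ends. Cep83 (ENSMUSG00000020024) encodes the protein on which the other distal appendage proteins are assembled and lies on chromosome 10, 94688654 to 94790853, on the plus strand. It was at 34.2 CPM (33.0 to 35.4; 3322 UMIs) and 27.9 CPM (26.8 to 28.9; 2722 UMIs), a log2 ratio of -0.29 (-0.37 to -0.22). Sclt1 (15.3 and 13.7 CPM) and Cep164 (62.1 and 59.1 CPM), which are placed downstream of it, had log2 ratios of -0.16 (-0.27 to -0.05) and -0.07 (-0.12 to -0.02). Cep89, in the same structure, was at 12.6 and 13.5 CPM with an interval that held 0. Fbf1, which sits between the appendages, was at 7.95 and 9.27 CPM, a log2 ratio of 0.22 (0.08 to 0.36), and passed the fold at 0.25 where the libraries were scaled by TMM or where cells over 5% mitochondrial UMIs were left out. The members of the appendage group thus did not move together.

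The other basal body genes differed little. Pcm1, the scaffold of centriolar satellites, had the most UMIs of the 31 genes, at 152 and 147 CPM, a log2 ratio of -0.05 (-0.08 to -0.01). Cep131, another satellite protein, was at 13.0 and 14.2 CPM, a log2 ratio of 0.13 (0.01 to 0.24). Odf2, which builds subdistal appendages, was at 82.4 and 84.8 CPM with an interval that held 0. Ofd1 (23.6 and 21.1 CPM) and C2cd3 (17.7 and 15.98 CPM), which set the length of the distal centriole, had log2 ratios of -0.16 (-0.25 to -0.08) and -0.15 (-0.25 to -0.05).

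In a second list of 46 genes of the same structures, 44 had a row and 40 had a mean of at least 5 CPM. Their median log2 ratio was -0.08, with 10 genes higher and 30 lower, beside 4037 and 5349 of the 9386 genes of all kinds. Past the fold lay 0 in either direction, beside 3.67% of all genes higher and 5.87% lower. The largest differences were those of Poc5, a centrin-binding centriole protein (10.1 and 8.55 CPM, log2 ratio -0.24), Tmem218, a transition zone membrane protein (6.48 and 5.61 CPM, -0.21), and Rttn, a centriole elongation protein (11.4 and 9.91 CPM, -0.20). The list was chosen with earlier results of these data known.

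Promoter windows from RefSeq on GRCm38.p6, running from 250 bases before to 50 after a start site, were matched for 29 of the 31 members. They are shown for the 3 genes past the fold, for B9d1, which went the other way, and for B9d2 as an example of a window with an X-box, the site of RFX factors that is known from ciliary genes. Capitals mark GGGCGG, the GC box that Sp factors bind, and GTTGCC, a single arm of the X-box, each on either strand (CCGCCC and GGCAAC on the other strand). Tmem107 is read from chr11:69070559-69070858 on the plus strand, Cep83 from chr10:94688540-94688839 on the plus strand, Dzip1 from chr14:118925421-118925720 on the minus strand, B9d1 from chr11:61504894-61505193 on the plus strand and B9d2 from chr7:25680530-25680829 on the plus strand.
Tmem107: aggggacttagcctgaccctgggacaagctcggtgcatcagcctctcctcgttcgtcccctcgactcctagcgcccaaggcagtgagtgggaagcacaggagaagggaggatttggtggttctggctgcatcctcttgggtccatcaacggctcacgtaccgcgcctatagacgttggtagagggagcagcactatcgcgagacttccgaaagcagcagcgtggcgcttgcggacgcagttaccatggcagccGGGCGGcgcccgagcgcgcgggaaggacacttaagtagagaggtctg
Cep83: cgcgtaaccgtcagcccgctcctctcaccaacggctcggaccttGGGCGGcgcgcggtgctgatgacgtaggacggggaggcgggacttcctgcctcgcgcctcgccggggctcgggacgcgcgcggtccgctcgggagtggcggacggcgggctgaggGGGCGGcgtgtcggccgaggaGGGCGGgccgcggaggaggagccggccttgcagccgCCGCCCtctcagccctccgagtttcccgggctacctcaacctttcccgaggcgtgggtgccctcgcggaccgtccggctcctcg
Dzip1: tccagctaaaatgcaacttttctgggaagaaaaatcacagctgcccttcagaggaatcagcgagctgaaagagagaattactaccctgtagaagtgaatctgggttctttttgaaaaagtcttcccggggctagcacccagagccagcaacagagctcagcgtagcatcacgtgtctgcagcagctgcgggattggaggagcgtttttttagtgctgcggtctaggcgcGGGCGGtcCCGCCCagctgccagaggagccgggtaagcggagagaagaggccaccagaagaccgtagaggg
B9d1: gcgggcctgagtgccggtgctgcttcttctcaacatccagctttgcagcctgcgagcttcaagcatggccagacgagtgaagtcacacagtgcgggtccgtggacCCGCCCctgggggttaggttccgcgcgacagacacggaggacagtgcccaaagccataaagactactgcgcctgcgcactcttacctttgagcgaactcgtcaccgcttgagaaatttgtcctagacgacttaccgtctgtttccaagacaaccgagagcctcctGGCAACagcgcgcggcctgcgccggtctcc
B9d2: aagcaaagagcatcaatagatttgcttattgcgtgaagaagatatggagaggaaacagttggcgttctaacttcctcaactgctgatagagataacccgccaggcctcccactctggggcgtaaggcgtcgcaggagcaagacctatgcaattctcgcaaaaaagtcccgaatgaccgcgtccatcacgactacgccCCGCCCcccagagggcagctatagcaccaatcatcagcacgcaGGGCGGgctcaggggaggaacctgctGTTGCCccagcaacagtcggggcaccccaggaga
The window of Tmem107 held 1 GC box, that of Cep83 held 4 and that of Dzip1 held 2, while B9d1 held 1 and B9d2 held 2. Of the 29 members matched, 16 (55.2%) had a GC box in a window, beside 51.00% of the 16571 coding genes and 38.2% of all 27025 genes in the table. GTTGCC was in windows of 11 members (37.9%), beside 14.0% of coding genes, and B9d1 and B9d2 had 1 each. A whole X-box, in the form with 2 bases between the arms, was in windows of 4 members (13.8%), beside 0.863% of coding genes. These were Ahi1, B9d2, Tctn1 and Tctn2, and none of them passed the fold between the libraries. GTTGCC or its reverse complement can be an arm of a whole X-box, so these counts overlap, while GC boxes and X-box arms did not overlap in the windows shown. A match describes letters in a window and not a bound site.

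Ratios between the libraries were also taken within cell states. For this, cells of both libraries were clustered together with the members left out of the genes used. Of 9 clusters, 7 had at least 100 cells in each library. Shares of cells differed between the libraries, among others for cluster 0 (27.5% and 51.9%) and cluster 3 (12.4% and 3.74%). Cluster 0 was primitive-streak-like (led by Fgf8, Gsc, Eomes, Mixl1 and T), cluster 4 naive-pluripotent-like (Dppa3, Zfp42) and cluster 6 neural-like (Sox1). Leading genes of cluster 0 also included the primed epiblast markers Fgf5 and Otx2 and the listed endoderm marker Trh. In it, 5 of 9 streak markers and 3 of 6 primed epiblast markers were raised, so its name covers a mixed state. Cluster 2, led by Mdm2, stayed unnamed. Clusters 1 (led by Gbx2, with the neural markers Irx3 and Irx5) and 3 (led by Pkdcc and Cdx2, with T) were also left unnamed, although 3 neural and 3 primitive streak markers were raised in them. Cluster 5 also stayed unnamed. Its cells were shallow, with medians of 3675 and 3226 UMIs, and held a median of 0.23% mitochondrial UMIs in both libraries, beside 3.62% to 4.57% in the other clusters of that size.

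Tmem107, Cep83 and Dzip1 had ratios below 0 in 7 of 7 clusters, with differing certainty. They were picked, as was B9d1, by their ratios over these same cells. Cluster ratios mostly of the same sign were therefore largely set by that choice and are no separate check. The share of all genes below 0 in 7 of 7 clusters was not computed. For Tmem107 the ratio ran from -0.51 to -0.19, and the interval lay below 0 in 4 clusters. In cluster 0, its levels were 42.1 and 32.8 CPM, a log2 ratio of -0.36 (-0.46 to -0.25). For Cep83 the ratio ran from -0.73 to -0.26 with the interval below 0 in 5 clusters, and in cluster 0 its levels were 34.5 and 28.8 CPM (-0.26, -0.38 to -0.15). Dzip1 was different, since its interval lay below 0 in 1 cluster, cluster 3. In cluster 0 it was at 15.2 and 14.0 CPM (-0.12, -0.29 to 0.05), in cluster 1 at 23.1 and 20.8 CPM (-0.15, -0.34 to 0.03) and in cluster 2 at 26.9 and 23.3 CPM (-0.21, -0.43 to 0.01). With each cluster given the same share of UMIs in both libraries, the Dzip1 ratio was -0.21 (-0.31 to -0.12), which is under the fold. B9d1 had its interval above 0 in 5 of 7 clusters, and its ratio in cluster 3 was -0.06 (-0.28 to 0.15).

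**Figure D2:**
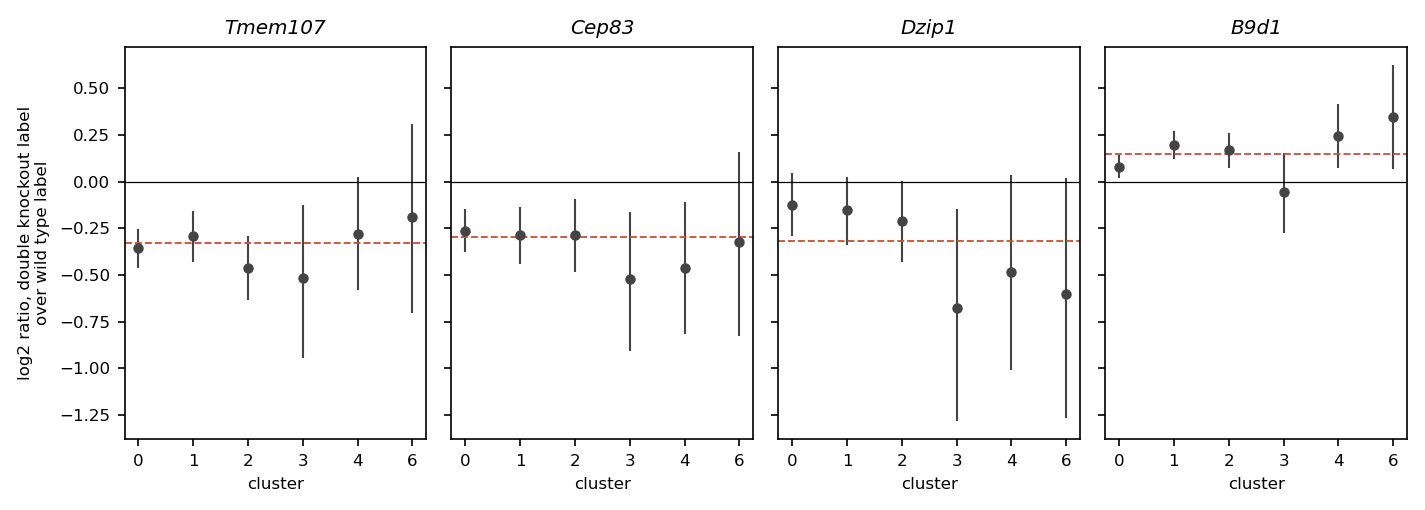
Log2 ratio between the libraries (double knockout label over wild type label) within each cluster (x axis, cluster number, without the shallow cluster 5), with exact 95% counting intervals. The dashed red line is the ratio over all cells. Points of Tmem107 and Cep83 lie around that line, points of Dzip1 in clusters 0, 1 and 2 lie above it, and B9d1 is below 0 in cluster 3.

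Antisense or overlapping genes on the opposite strand had a row for 13 members, and the strand setting of the counting is not given in the sources used here. Tmem107 and B9d1 overlap no other annotated gene. The antisense gene of Cep83, Gm48689, had 0 and 2 UMIs. That of Dzip1, Gm49179, was at 3.59 and 2.89 CPM, with a log2 ratio of -0.31 (-0.55 to -0.08) close to that of Dzip1 itself. Its part in the Dzip1 ratio was not tested.

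Chromosome 11 carries 6 of the 26 members compared, namely Tmem107, Tmem17, B9d1, Mks1, Fbf1 and Cep131. Between the libraries their median log2 ratio was 0.11, with 5 of 6 higher and Tmem107 the exception. The 797 genes of chromosome 11 at 5 CPM or more had a median of 0.05, with 525 higher and 272 lower. The 20 members on other chromosomes had -0.06, with 5 higher and 15 lower, beside 4037 and 5349 of all 9386 genes. The share of UMIs from chromosome 11 itself, counted without the members in cells of at least 4000 UMIs, fell into 2 peaks. It was at most 0.8 times the median in 1511 cells (17.9%, 17.1 to 18.7) and 601 cells (5.88%, 5.43 to 6.35). Cluster 3 held 66.4% and 57.6% of these low cells.

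Members on chromosome 11 were lower in these cells than in other cells of the same library. Their median log2 ratio was -0.69 and -0.76, beside -0.49 and -0.53 for 659 other genes of chromosome 11 and -0.17 and -0.12 for the 20 members elsewhere. The 659 genes had a mean of at least 10 CPM. For each, low cells were called from alternate genes along chromosome 11 that left that gene out. Members used the call from all of these genes, so the values of both sets are not fully alike and their difference was not tested. Mks1, an organiser of the MKS complex, was at 4.87 CPM in low cells and 10.98 CPM in other cells of the library labelled wild type, a log2 ratio of -1.16 (-1.54 to -0.83). The corresponding values under the double knockout label were 4.39 and 10.5 CPM, a log2 ratio of -1.23 (-1.96 to -0.64). B9d1 was at 72.8 against 118 CPM (-0.70, -0.79 to -0.61) and at 68.2 against 126 CPM (-0.89, -1.05 to -0.73). Cep131 had ratios of -0.75 and -0.82 and Tmem107 of -0.69 and -0.70, and for these 4 genes the intervals lay below 0 in both libraries. Tmem17 had -0.33 (-0.60 to -0.08) and -0.27 (-0.73 to 0.12). Fbf1 had -0.35 (-0.69 to -0.05) and -0.04 (-0.53 to 0.39). Thus 5 of 6 passed 0.25 downward in both libraries, beside 82.7% of the 659 other chromosome 11 genes under their own call of low cells. Of the 20 members elsewhere 2 did so, Dzip1 and Tmem231, beside 5.82% of genes elsewhere. Upward, 0 of 6 and 0 of 20 did so, beside 0.152% and 9.47%.

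The ratios between the libraries were also taken without the low cells and without cells under 4000 UMIs, which left 6938 and 9628 cells. The median of the 6 went from 0.11 to 0.06, and 4 of 6 were higher. B9d1 went from 0.15 to 0.09 (0.05 to 0.13), Cep131 from 0.13 to 0.06 (-0.05 to 0.18) and Mks1 from 0.02 to -0.06 (-0.19 to 0.07). Tmem107, already below 0, went from -0.33 to -0.38 (-0.45 to -0.31). Fbf1 was at 0.19 (0.05 to 0.34). The ratios of all 6 were thus lower than over all cells. So were those of 15 of the 20 members elsewhere, whose median went from -0.06 to -0.09, with Tctn2 going from 0.07 to 0.01. How much of either shift comes from the low cells was not tested. Within the low cells outside cluster 3, the median over the 6 members was -0.65 and -0.55, lower there too. Cells with a low chromosome 11 share were known from earlier results of these data.

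**Figure D3:**
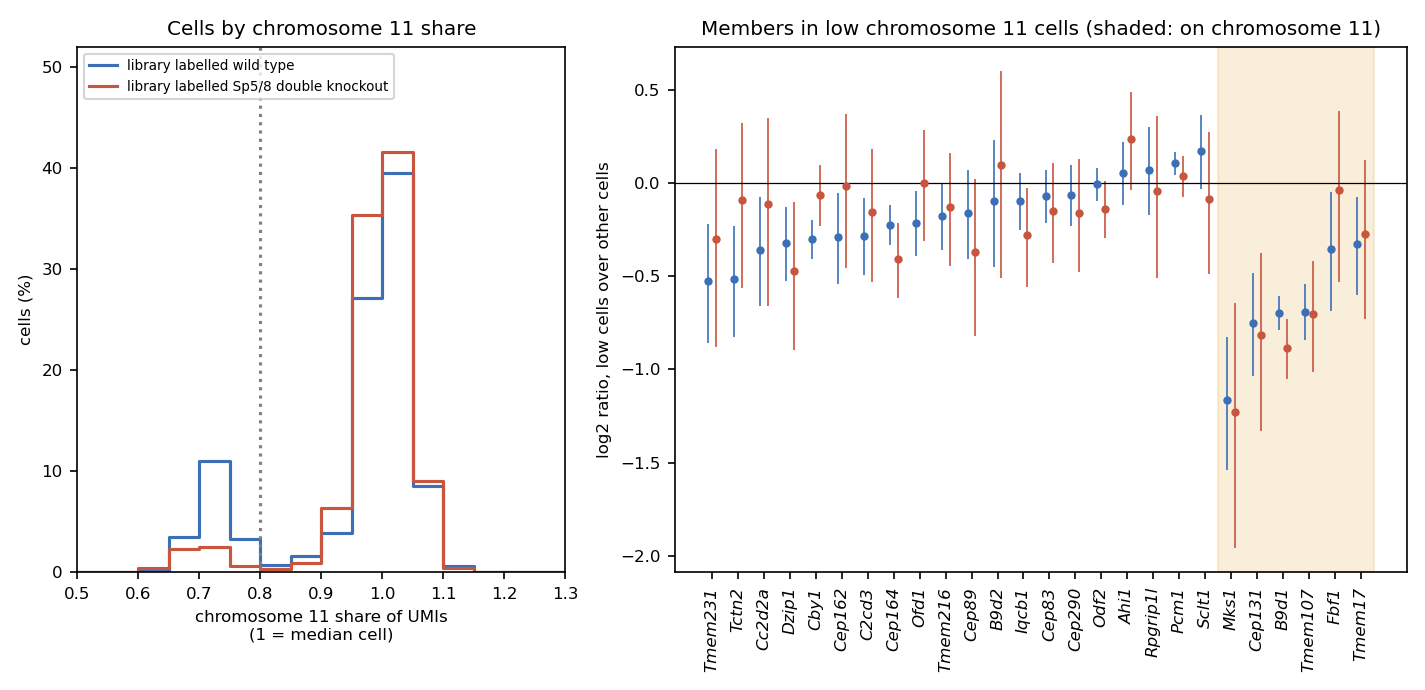
Left, percent of cells of each library by their share of UMIs from chromosome 11 relative to the median cell, with a dotted line at 0.8. Right, log2 ratio of low cells over other cells for the 26 members compared, with exact 95% counting intervals (blue, library labelled wild type; red, library labelled double knockout), and members on chromosome 11 shaded. Mks1 is the lowest point in both libraries, and Fbf1 is near 0 in the library labelled double knockout.

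Each cluster was then compared with all other cells of its library. At 1.5-fold or more against other cells, in the same direction in both libraries with both intervals apart from 0, 15 of 26 members differed in at least 1 of 7 clusters, beside 44.2% of all genes. Without the shallow cluster 5 the count was 5, beside 15.5% of all genes. In cluster 3, Tmem107, B9d1 and Mks1 were lower, beside 2.66% of all genes. Of its cells with at least 4000 UMIs, 94.2% and 88.5% were low in chromosome 11. Rpgrip1l was lower in naive-pluripotent-like cluster 4, at 7.25 against 11.7 CPM (-0.67, -1.23 to -0.20) and at 6.60 against 10.7 CPM (-0.68, -1.22 to -0.22), beside 3.85% of all genes. Cep131 was higher in neural-like cluster 6, at 19.1 against 12.9 CPM (0.59, 0.09 to 1.02) and at 21.7 against 14.0 CPM (0.65, 0.15 to 1.07), beside 4.93% of all genes. Those values rest on 34 and 36 UMIs for Rpgrip1l and on 42 UMIs in each library for Cep131.

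Smaller differences repeated in both libraries. The members named were picked from many values, and the share of all genes with differences of this size was not computed. Odf2 was higher in cluster 4, at 104.7 against 81.3 CPM (0.37, 0.23 to 0.50) and at 111 against 83.3 CPM (0.41, 0.29 to 0.53). Cby1 was lower there, at 53.9 against 72.3 CPM (-0.42) and at 52.7 against 71.7 CPM (-0.44), and lower in cluster 6, at 50.1 against 71.9 CPM (-0.52) and at 51.8 against 71.0 CPM (-0.45). Cep164 was also lower in cluster 4, with ratios of -0.34 and -0.29. Also lower there, with both intervals below 0, were Sclt1 (-0.47 and -0.60), Dzip1 (-0.41 and -0.58) and Tmem216 (-0.38 and -0.77), as was Pcm1 by less (-0.14 in both). Dzip1 lay on different sides of the other cells in different clusters. In primitive-streak-like cluster 0 it was at 15.2 against 22.1 CPM (-0.54, -0.70 to -0.39) and at 14.0 against 18.6 CPM (-0.42, -0.56 to -0.27). In cluster 2 it was at 26.9 against 18.6 CPM (0.54) and at 23.3 against 14.9 CPM (0.64), and in cluster 1 its ratios were 0.32 and 0.47. In cluster 1, Tmem216 (0.33 and 0.40), Rpgrip1l (0.36 and 0.53), Cep162 (0.36 and 0.32) and Cby1 (0.28 and 0.27) were higher than in other cells of both libraries. Tmem17 was lower there (-0.33 and -0.38), as was Iqcb1 by less (-0.19 in both), with both intervals below 0. In cluster 3, Cep131 on chromosome 11 was lower (-0.58 and -0.64), with both intervals below 0. So were Dzip1 (-0.34 and -0.68), Tctn2 (-0.43 and -0.62) and Cep164 (-0.22 and -0.41), which lie on other chromosomes. Pcm1 was higher in cluster 3, at 0.11 and 0.09, and its interval held 0 under the double knockout label. Summed over all members, cluster 1 held 915 and 898 CPM, cluster 6 held 853 and 897 CPM and cluster 3 held 763 and 720 CPM. The shallow cluster 5 held least, at 650 and 647 CPM. Within cluster 3, B9d1 was at 75.2 against 116 CPM and at 72.2 against 125 CPM. Tmem107 was at 27.4 against 43.4 CPM and at 19.1 against 33.6 CPM. The part of chromosome 11 genes in that sum was not tested.

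In the shallow cluster 5, 10 of 26 members were lower past 1.5-fold in both libraries, beside 34.5% of all genes. Pcm1 was at 65.7 against 154 CPM (-1.21) and at 76.6 against 148 CPM (-0.95). Dzip1, C2cd3 and Cep290 were lower as well, with ratios from -1.17 to -2.54, while Cby1 was higher at 98.2 against 71.1 CPM (0.47) and 102.1 against 70.2 CPM (0.54). The lower values rest on few UMIs in the cluster, 7 and 3 for Dzip1, 6 and 3 for C2cd3 and 12 and 12 for Cep290. The interval of the Dzip1 ratio of -2.54 ran from -5.04 to -1.21. Over the 26 members the median ratio in this cluster was -0.72 and -0.58, beside -0.53 and -0.54 for all genes. The 10 lower members had longest coding transcripts of 3005 to 8211 bases (median 5795), and the 15 others with a length had 817 to 7009 bases (median 2610). Over these 25 genes Spearman's rho between length and ratio was -0.57 and -0.60, as a description across genes that share the same cells. Length thus moved with the ratios across members, while low depth and low mitochondrial share are traits of the cluster as a whole. The part of each was not tested.

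**Figure D4:**
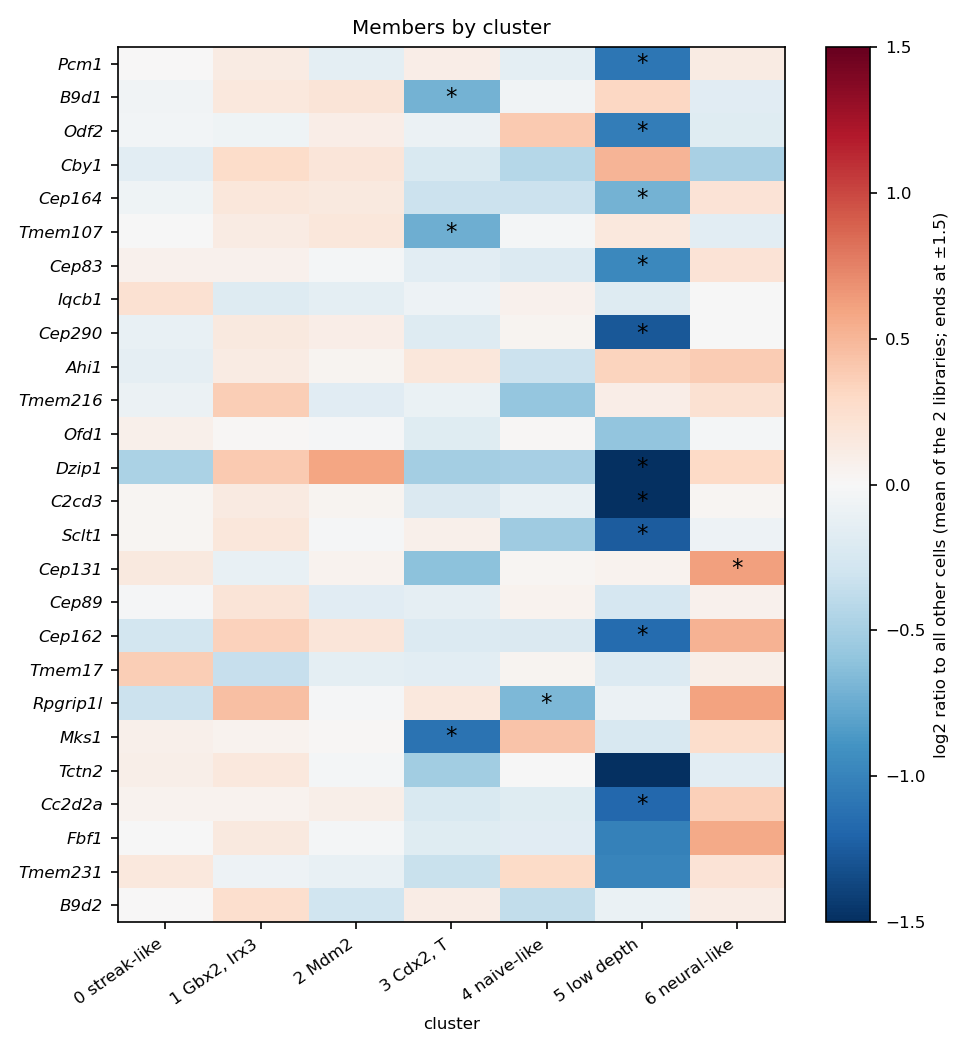
Log2 ratio of each of the 26 members compared (vertical axis) in a cluster (horizontal axis) against all other cells of the same library, as the mean of both libraries, with the colour scale ending at 1.5 in either direction. Stars mark ratios of 1.5-fold or more in the same direction in both libraries with both intervals apart from 0. The column of the shallow cluster 5 holds 10 stars, cluster 3 holds 3, and clusters 4 and 6 hold 1 each.

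Because cilia are taken apart and rebuilt with each division, cells whose G2/M score led were compared with cells whose S score led. Scores were taken on thinned cells, and 48.7% (47.7 to 49.8) and 49.4% (48.4 to 50.3) of cells were G2/M-leading. All other cells counted as S-leading, so cells low in both scores were not set apart in this contrast. Odf2 and Cep89 were higher in G2/M-leading cells past 0.25 in both libraries, which is 2 of 26 members beside 2.47% of all genes, and 0 were lower, beside 1.65%. Odf2 was at 92.5 against 71.4 CPM (0.37, 0.31 to 0.44) and at 93.9 against 74.9 CPM (0.33, 0.26 to 0.39). Cep89 was at 14.2 against 10.9 CPM (0.39, 0.22 to 0.55) and at 14.8 against 12.0 CPM (0.31, 0.15 to 0.47). Cep164 also had both intervals above 0 but lay inside the fold, at 63.9 against 60.2 CPM (0.09) and 61.7 against 56.3 CPM (0.13). The share of all genes with both intervals above 0 was not computed. Odf2, Cep89 and Cep164 encode appendage proteins of the mother centriole, but other appendage genes did not share this. Cep83 had -0.01 and -0.05, and Sclt1 had -0.09 and -0.06, and their intervals held 0. Fbf1 went in different directions, at 0.21 and -0.08. Cep162 had the lowest ratio under the wild type label, at -0.25 (-0.42 to -0.09), and -0.15 (-0.32 to 0.03) under the double knockout label, where Tmem231 was lower at -0.17. The median over the 26 members was 0.09 and 0.03, beside 0.01 for all genes in both libraries.

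Cells low in both scores, 13.6% (12.9 to 14.4) and 18.2% (17.5 to 18.9) of the cells, were compared with all others in the same way. Cep89 was lower in both libraries, at 10.6 against 12.9 CPM (-0.27, -0.55 to -0.01) and at 10.7 against 14.0 CPM (-0.39, -0.63 to -0.17), as 1 of 26 members beside 1.83% of all genes. Pcm1 was lower with both intervals below 0 but inside the fold, at 132 against 155 CPM (-0.23, -0.30 to -0.15) and at 134 against 150 CPM (-0.16, -0.23 to -0.09). Past the fold 0 members were higher in both libraries, beside 1.24% of all genes. Tmem107 and B9d1 had intervals that held 0 in both libraries in either contrast.

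**Figure D5:**
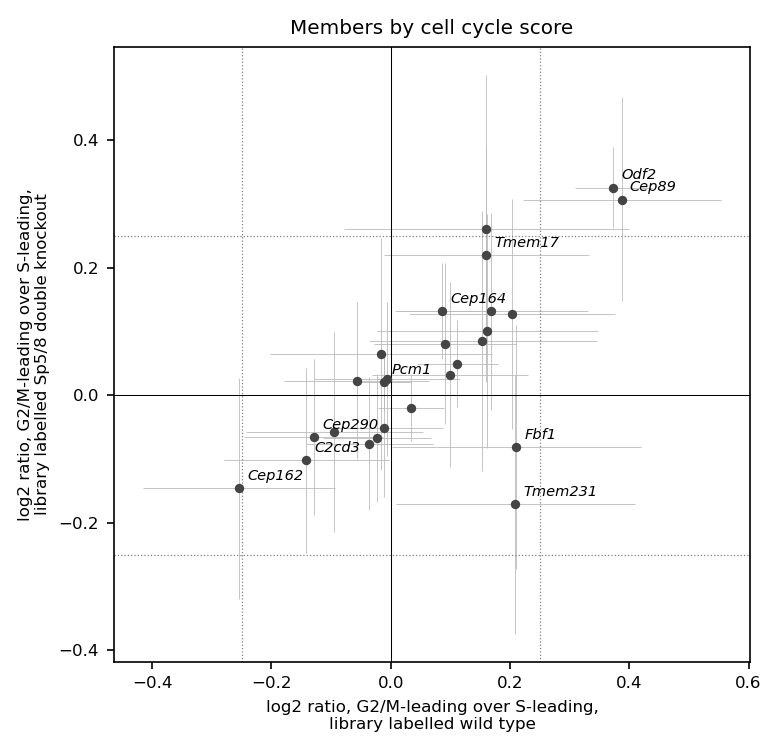
Log2 ratio of G2/M-leading over S-leading cells, with the wild type label on the x axis and the double knockout label on the y axis, for the 26 members compared, with exact 95% counting intervals in grey and dotted lines at -0.25 and 0.25. Odf2 and Cep89 are the points beyond 0.25 in both libraries, and Fbf1 and Tmem231 change sign.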

How the data were processed

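Single-cell 3′ libraries (10x kit 3.1) were made from pooled gastruloids, 1 library per group, per the labels. The deposited values are raw UMI counts by gene and barcode, which the authors had not normalized, for 6794880 barcodes in each library. The labels' protocols name Cell Ranger 8.0.1, and the submitters' processing notes name STARsolo, STAR 2.7.9a, Seurat 5.1.0 and mm10. Which of these made the deposited counts, and with which strand setting, is not given in the sources used here. The labels state medians of 5333 and 5398 genes per cell, against 3275 and 2884 in the cells taken here.

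Cells were called by the limits given above, which removed 1 and 0 barcodes for few genes and 64 and 26 for mitochondrial UMIs. Doublets were kept, and an alternative removed 606 cells (6.96%) and 897 cells (8.47%) of highest simulated-doublet score. Counts were summed over cells and divided by the summed UMIs of all genes (CPM). Log2 ratios used a pseudocount of 0.5 UMIs. Intervals are at 95%, exact Poisson for sums, exact conditional for ratios and exact Clopper-Pearson for shares of cells. Coordinates, biotypes, overlaps and transcript lengths come from GENCODE M21 on GRCm38, the assembly that mm10 names, where Tctn2 has no coding transcript and therefore no length.

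Clustering used scanpy 1.11.5 and leidenalg 0.10.2 with resolution 0.5, from 15 neighbours in 30 principal components of 2000 variable genes. A cluster was named where at least 1 fixed marker was among its 10 leading genes and at least 3 were 1.5-fold higher, a rule set after the clusters were seen. Clusters 1 (neural markers) and 3 (primitive streak markers) met it too, with 3 of 9 markers each, and were left unnamed, also a choice made after the clusters were seen. Cluster 0 met it for primed epiblast markers as well (3 of 6) and was named by its streak markers (5 of 9). Phase scores came from S and G2/M gene lists on cells thinned to 2500 UMIs. TMM factors came from edgeR 4.0.16. The ratio and its interval were tested on simulated data. All 31 members could be named, with the 3 largest ratios of the second list. Gm48689, Gm49179 and Foxj1 are named outside that rule. The members, lists and comparisons were chosen with earlier results of these data known.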

Additional observations from a re-analysis of the deposited data

Results flagged for a closer look

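Cep89, a distal appendage gene, had library ratios of opposite sign in different clusters, and was picked for this from the ratios of all members in all clusters used. In cluster 1 its log2 ratio was 0.30 (0.08 to 0.52), from 13.02 to 16.02 CPM, and in naive-pluripotent-like cluster 4 it was -0.51 (-1.03 to -0.01), from 15.99 to 11.2 CPM on 75 and 61 UMIs. The difference between the clusters was not tested. With so many values searched, such a pair can come from counting error, and the interval in cluster 4 ended close to no difference. How many of all genes hold such a pair was not computed, so it is not read here as a difference between cell states.

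Members were also counted in barcodes of 10 to 100 UMIs, which no comparison uses, at 721 and 720 CPM, or 0.838 and 0.858 times the level in cells. A count of 3 UMIs there would be 0.758 and 1.18 CPM. Over the 25 members with a length at 5 CPM or more, the level in these barcodes relative to cells ran from 0.524 (Cep162) to 1.23 (Tmem216) and from 0.565 (Dzip1) to 1.25 (Tmem107). Spearman's rho of that relative level with transcript length was -0.70 and -0.77, as a description across genes of the same libraries.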

How the results depend on the processing

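No paired analysis was possible because each group has 1 library, and no replicate could be left out. The median ratio of the members between the libraries kept its sign under each alternative run, between -0.06 and -0.01. Past a fold of 0.5, 0 members remained of the 3. The ratio of summed UMIs was -0.0074 (-0.021 to 0.0065) with TMM scaling and -0.053 (-0.068 to -0.039) without the cells of low chromosome 11 share. TMM scaling placed 12 members higher and 14 lower, turned B9d2 (0.01), Cby1 (0.01) and Tctn3 (0.02) from just below to just above 0, and gave 4 members past the fold, as did a mitochondrial limit of 5%. Within cluster 0 alone, 6 members were higher and 20 lower, Tmem17 was at -0.09 (-0.26 to 0.09), Iqcb1 at -0.06 and Cep131 at -0.05 (-0.22 to 0.12), all with intervals that held 0. Dzip1 passed the fold neither there nor with equal cluster shares, while the Tmem107 ratio stayed between -0.38 and -0.30 and that of Cep83 between -0.30 and -0.26 under each alternative run. The G2/M count was 4, all higher, with the clearest cells of each score, beside 7.18% of all genes higher and 4.49% lower, and the cluster count was 5 without cluster 5, beside 15.5%, an alternative added after seeing the data, as was leaving out cluster 3. The cause of these changes was not tested. Ratios of single members under an alternative moved by less than their counting interval in 302 instances and by more in 8. Depth limits the 5 members under 5 CPM and the smaller clusters most.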
